A study of Mus musculus with 33 samples.

Results

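The Rhox genes are a cluster of X-linked homeobox genes, and they were followed here through embryonic stem cells (ESCs) that lack heterochromatin protein 1 (HP1) or the H3K9 methyltransferase SETDB1. Members were all genes whose name begins with Rhox and a number, which gave 42 of the 55487 genes in the deposited count tables. All 42 lie on the X chromosome of GRCm38 within 1092 kb, from the start of Rhox1 to the end of Rhox7-ps1 (chrX:37213804-38306028, GENCODE M21). Of these, 34 are annotated as protein coding and 8 as pseudogenes. By the usual division of the cluster, 27 members belong to the alpha group (Rhox1 to Rhox4, most of them tandem copies of Rhox2, Rhox3 and Rhox4), 8 to the beta group (Rhox5 to Rhox9), 6 to the gamma group (Rhox10 to Rhox12), and Rhox13 stands alone near the far end.

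Rhox genes encode homeodomain transcription factors of reproductive and extraembryonic tissue, such as testis, ovary and placenta. In ESCs and in the embryo proper most of the cluster is known to be silent, and DNA methylation at its promoters is part of that silencing. HP1 proteins, encoded by Cbx5 (HP1α), Cbx1 (HP1β) and Cbx3 (HP1γ), bind methylated H3K9 and take part in heterochromatin. SETDB1 places H3K9 trimethylation at retroelements and at a set of germ cell genes.

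All 33 libraries are of C57BL/6 mouse ESCs, 3 for each of 11 conditions. The mutants comprise HP1αKO, HP1βKO and HP1γKO cells, the HP1β/αDKO, HP1γ/αDKO and HP1β/γDKO double mutants, the HP1β/γ/αTKO triple mutant, and SETDB1KO cells beside their SETDB1FF parent, in which Setdb1 is flanked by loxP sites. According to the study the single and double mutants are constitutive knockout lines made by genome editing. The triple mutant was made by Cre deletion of floxed Hp1γ in cells that already lacked Hp1α and Hp1β. Its RNA was taken shortly after Cre transfection, which in the study's account brought much cell death and a cell-cycle arrest. The study names the same floxed cells given a control vector as control, whereas the deposited table sets the triple mutant beside wild-type cells. SETDB1KO cells were also made by Cre deletion, from SETDB1FF cells. The cells were grown on feeder fibroblasts, which were removed by plating before the RNA was taken. In the deposited tables a first wild-type set (set A) accompanies the single mutants, HP1β/αDKO and HP1β/γ/αTKO cells, and a second (set B) accompanies HP1γ/αDKO and HP1β/γDKO cells. A clone and its genotype cannot be told apart, since no label names more than 1 line for a genotype, and p values then measure the spread between libraries of that line.

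Total counts ran from 17330992 to 25743193 per library. The targeted transcripts were lower in the lines named for them. Cbx5 had 85.4 to 207.6 CPM (counts scaled to the size of the library) in HP1αKO, HP1β/αDKO and HP1γ/αDKO libraries and 438.8 to 490.4 CPM in the wild-type libraries. Cbx1 had 67.6 to 111.5 CPM in the HP1β single and double mutants against 373 to 448 CPM, and Cbx3 had 63.2 to 100.6 CPM in the HP1γ single and double mutants against 157 to 199.8 CPM. Setdb1 had 67.7 to 71.6 CPM in SETDB1KO and 131 to 136 CPM in SETDB1FF libraries. In the triple mutant, Cbx5 still had 267 to 276 CPM, Cbx1 42.1 to 47.6 CPM and Cbx3 59.2 to 63.9 CPM. Replicate 2 of HP1γ/αDKO stood apart from the other 2 libraries of its group (chi-square per gene of 114 and 122, against 1.89 to 11.3 for every other pair of replicates), so that the calls of this group are given with and without it. The 6 SETDB1 libraries differed from the 27 others in Y-linked genes. Ddx3y had 0 to 0.059 CPM in them and 31.9 to 109 CPM in the others, Eif2s3y 0 to 0.059 against 29.5 to 116 CPM, Uty 0 to 0.2 against 13.4 to 79.7 CPM and Kdm5d 0.65 to 2.31 against 6.79 to 65.2 CPM. For that reason levels of the X-linked Rhox genes were compared between SETDB1KO and SETDB1FF cells, and not directly with the HP1 mutants.

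Of the 42 members, 7 had enough counts to be tested against the control of at least 1 mutant (Rhox1, Rhox5, Rhox6, Rhox7-ps2, Rhox9, Rhox10 and Rhox13). Another 23 had a few counts, at most 16 in any library, and 12 had no count in any of the 33 libraries. All copies of Rhox2, Rhox3 and Rhox4 are among these 35. Their transcripts share sequence to unequal degrees: of all 100-base windows in a copy of Rhox4, 51.4% to 98.1% also occur in another member, for Rhox3 32.2% to 100%, and for Rhox2 0% to 90.9% (median 32.4%). Counts of single copies that share windows are uncertain. Rhox1, Rhox7-ps2, Rhox10 and Rhox13 are so low that in several comparisons they passed the minimum count only through the group in which they were higher, which fixes the direction of their calls, and counts of members called are given with that limit. Rhox1, Rhox5, Rhox10 and Rhox13 share no such window with another member, Rhox9 shares 2.4% and Rhox6 6.8%, so that reads of the main members can be told apart. Rhox7-ps2 shares 27.4% of its windows with Rhox7b.

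**Figure D1:**
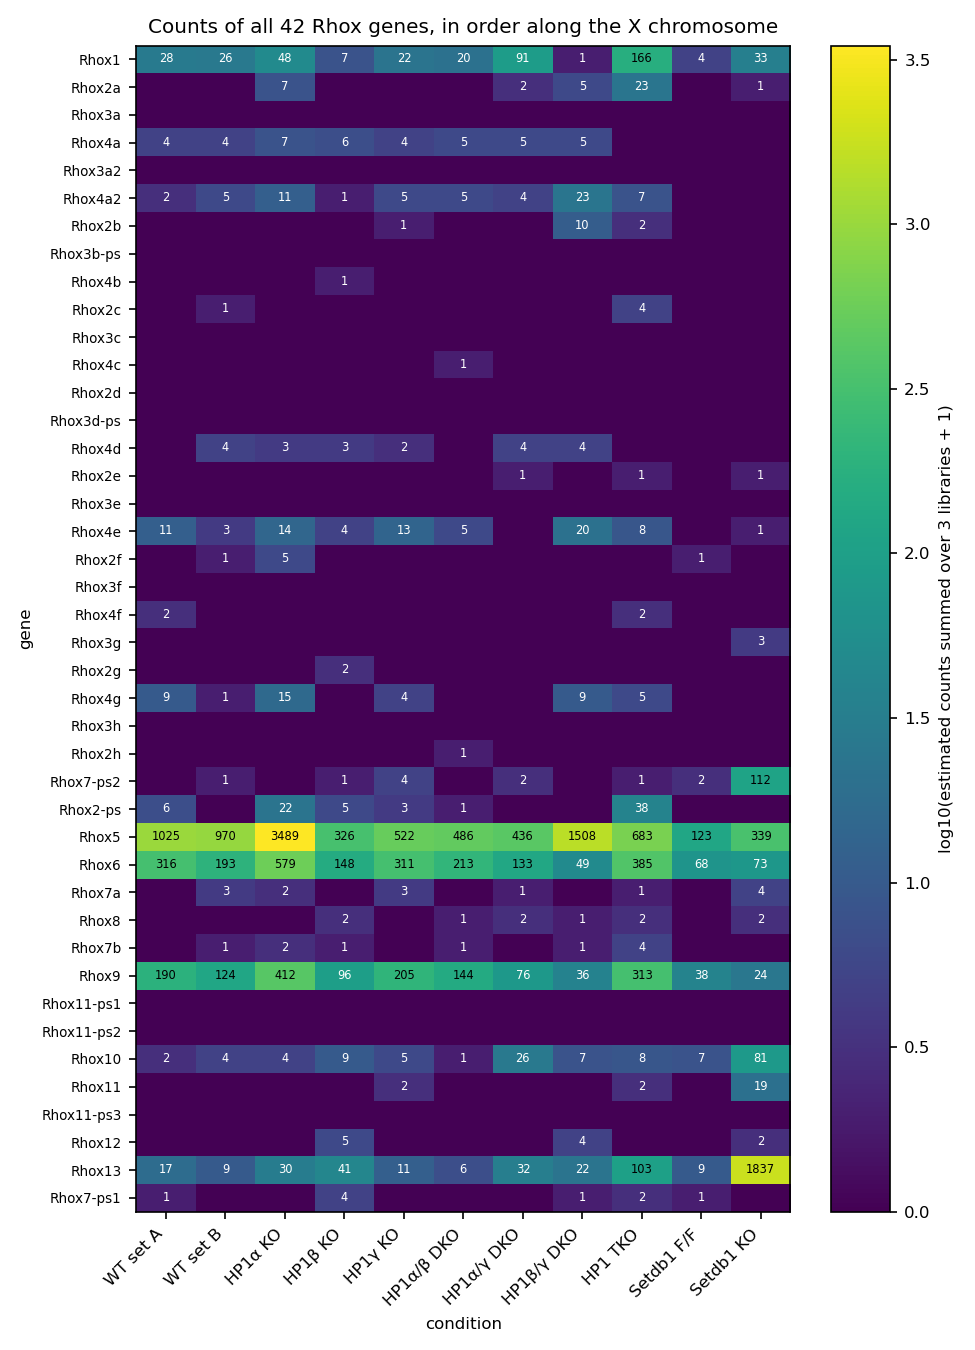
Estimated counts summed over the 3 libraries of each condition (columns) for all 42 Rhox genes (rows, in order along the X chromosome), with the colour on a log10(counts + 1) scale. Rhox5, Rhox6 and Rhox9 are counted in every condition, Rhox13 reaches 1837 counts in Setdb1 KO cells, and the rows of Rhox3 copies are empty in the HP1 mutants.

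Promoters of 3 members are printed because these genes came on from near 0 and differ in the density of CpG, the dinucleotide that DNA methylation acts on. The RefSeq sequences (GRCm38.p6) run from 250 bases before to 50 bases after the annotated start, and capitals mark each CpG. The promoter of Rhox13 (chrX:38120590-38120889, plus strand) holds 5 CpGs, a number reached by 62% of all 32851 mouse promoters in the same table. Rhox10 (chrX:38066225-38066524, plus strand) has 9, reached by 45.8%. Rhox1 (chrX:37222209-37222508, minus strand) has 0, as do 5.43% of all promoters.
Rhox13: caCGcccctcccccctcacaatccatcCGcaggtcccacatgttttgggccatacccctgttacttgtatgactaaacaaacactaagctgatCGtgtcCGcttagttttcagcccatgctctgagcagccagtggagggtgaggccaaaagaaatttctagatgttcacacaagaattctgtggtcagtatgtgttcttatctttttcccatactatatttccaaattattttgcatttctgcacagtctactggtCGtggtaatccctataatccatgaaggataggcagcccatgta
Rhox10: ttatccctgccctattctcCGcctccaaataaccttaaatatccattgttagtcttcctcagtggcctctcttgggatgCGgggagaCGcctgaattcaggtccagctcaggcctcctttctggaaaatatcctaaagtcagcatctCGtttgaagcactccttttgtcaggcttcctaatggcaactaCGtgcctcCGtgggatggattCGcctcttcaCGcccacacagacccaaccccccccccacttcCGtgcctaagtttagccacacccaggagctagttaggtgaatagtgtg
Rhox1: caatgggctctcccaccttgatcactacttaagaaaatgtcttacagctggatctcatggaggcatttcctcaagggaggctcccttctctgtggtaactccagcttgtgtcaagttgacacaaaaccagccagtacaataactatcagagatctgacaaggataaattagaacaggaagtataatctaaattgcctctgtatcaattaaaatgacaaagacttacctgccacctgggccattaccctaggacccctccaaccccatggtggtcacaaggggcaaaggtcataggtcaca

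Across the 28 members with a RefSeq promoter the median was 7 CpGs, the same as over all promoters. Copies of Rhox4 held 10 to 12 CpGs, those of Rhox2 5 to 9 and those of Rhox3 2 to 4. The E-box CACGTG, which reads the same on both strands, occurred in 5 of the 28 promoters, all of them copies of Rhox4, and in 7.15% of all promoters. The E2F-like letters GCGGGA, searched on both strands, occurred in 1 of the 28 and in 19.98% of all. For Rhox5 the RefSeq start lies 50234 bases upstream of the start of the GENCODE gene (chrX:37804842-37808876), so that its promoter is not shown. For Rhox13 the GENCODE gene starts 379 bases downstream of the RefSeq start, so that the printed bases lie before it. In all 7 of the 28 members have starts that differ by more than 100 bases between the annotations, and the CpG counts hold for the RefSeq starts.

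In wild-type ESCs the counts of the cluster came mostly from 3 genes of the beta group. Rhox5, also known as Pem and the founding member of the family, had 17.5, 16.5 and 14.1 CPM in set A and 15.5, 15.3 and 14.4 CPM in set B. It took 59.55% to 65.97% of all counts of the cluster in set A and 70.79% to 73.18% in set B. Rhox6, a placental member also called Psx1, had 4.63, 5.05 and 5.19 CPM in set A and 3.405, 2.64 and 2.97 CPM in set B. Rhox9, its close relative Psx2, had 3.33, 2.41 and 3.2 CPM in set A and 1.925, 1.97 and 1.88 CPM in set B. Per length, the order was the same: in set A Rhox5 had 56.2 ± 6.82 TPM, Rhox6 8.96 ± 0.578 TPM and Rhox9 6.59 ± 1.11 TPM (SD, n = 3). Rhox5 differed by -0.09 on the log2 scale between set B and set A (interval -0.29 to 0.12), whereas Rhox6 and Rhox9 were lower in every library of set B than in set A. Between set B and set A 5.68% of all genes tested were called, and 0 of 3 members (edgeR, and 0 with DESeq2). Of these, 2 had an edgeR adjusted p under 0.05 and missed the call on the fold threshold only. The log2 difference was -0.72 for Rhox6 (edgeR adjusted p = 0.00595) and -0.62 for Rhox9 (edgeR adjusted p = 0.0492), which is the size of difference that wild-type sets alone can show for these genes. These sets come from different tables, in which 7 and 11 well-counted genes are at 0 throughout on one side only.

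Rhox1, the first gene of the alpha group, had 8 to 10 counts per library in set A and 6 to 11 in set B. Rhox13, a gene of male germ cells at the other end of the cluster, had 5 to 6 counts in set A and 1 to 5 in set B. In SETDB1FF ESCs, another line in another table, Rhox5 had 2.45, 2.48 and 1.77 CPM, Rhox6 1.05, 1.355 and 1.36 CPM and Rhox9 0.75, 0.677 and 0.649 CPM.

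**Figure D2:**
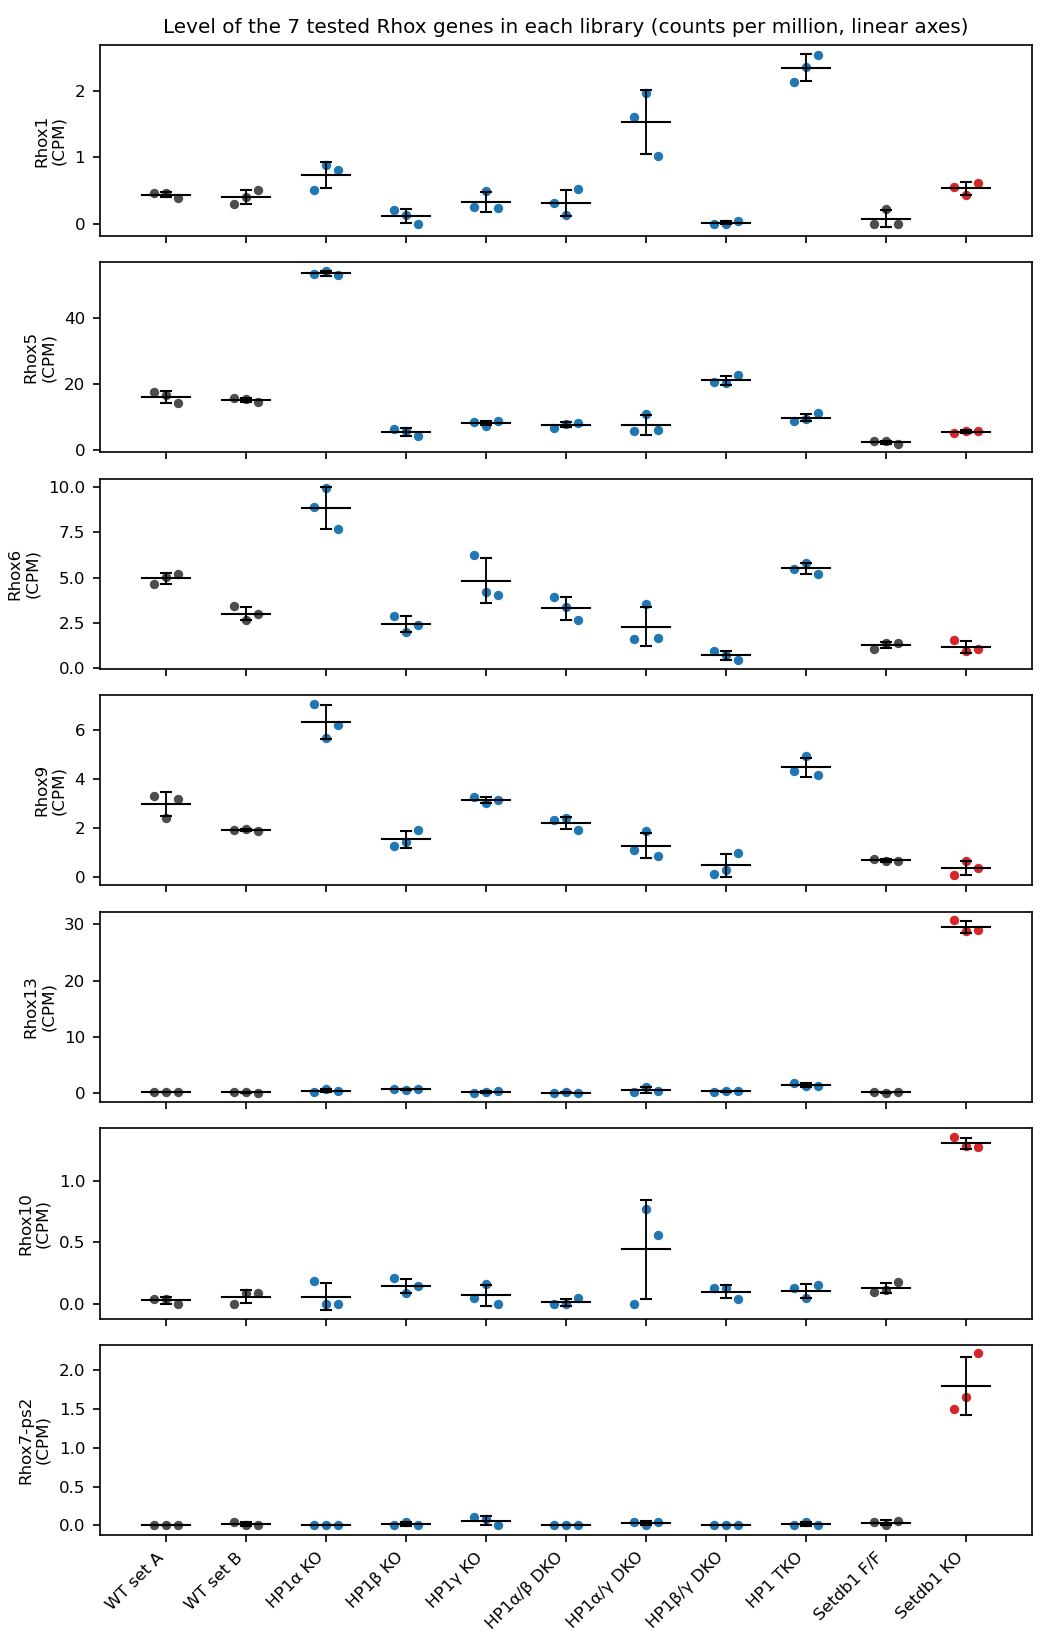
Level of the 7 tested Rhox genes in each library in CPM on linear axes; each point is a library, the horizontal line the mean of 3 and the bar the SD. The 3 HP1α KO libraries lie above all others for Rhox5, and the 3 Setdb1 KO libraries lie above the 3 Setdb1 FF libraries for Rhox13, Rhox10 and Rhox7-ps2.

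Loss of HP1α raised Rhox5 and Rhox9 of the beta group. Rhox5 had 53.4, 54.3 and 52.9 CPM in HP1αKO libraries, above every wild-type library, a log2 fold change of 1.73 (SE 0.0693; quasi-likelihood test of edgeR, Benjamini-Hochberg adjusted p = 7.54e-14). Rhox9 had 7.08, 5.7 and 6.2 CPM, a log2 fold change of 1.08 (SE 0.181, edgeR adjusted p = 5.49e-05). Its call was lost without HP1αKO replicate 1 (0.995) or without wild-type replicate 2 (0.95), when the change fell under the threshold of 1. Rhox6 had 8.89, 9.99 and 7.68 CPM and a log2 fold change of 0.83 (SE 0.142, edgeR adjusted p = 6.79e-05), under the threshold; against set B it was 1.565 and was called. Of 4 members tested 2 were called, where 4.87% of all genes were called. Rhox1 was tested as well, with 0.51, 0.884 and 0.811 CPM and a log2 fold change of 0.73 (edgeR adjusted p = 0.193). Copies of Rhox2, too low to test singly, summed to 9, 13 and 12 counts against 2, 3 and 1 in set A. For the sum of Rhox4 copies the libraries overlapped those of set A.

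Against set A, loss of HP1β had the opposite sign for the same genes. Rhox5 was down-regulated to 6.3, 5.52 and 4.125 CPM, a log2 fold change of -1.61 (SE 0.149, edgeR adjusted p = 6.41e-06), and every HP1βKO library lay below every wild-type library. Rhox6 fell to 2.89, 2.01 and 2.38 CPM, by 1.05 on the log2 scale (SE 0.194, edgeR adjusted p = 0.000902). Against set B, in which Rhox6 is lower, its log2 fold change was -0.33 and was not called, and without HP1βKO replicate 2 it was -0.93. Rhox9 had 1.26, 1.46 and 1.94 CPM and a log2 fold change of -0.95 (edgeR adjusted p = 0.011), under the fold threshold. It was called without wild-type replicate 2 (-1.08) or HP1βKO replicate 3 (-1.14). Its libraries overlapped those of set B, which had 1.88 to 1.97 CPM. Rhox13 went the other way with 0.6825, 0.5015 and 0.825 CPM, from 11 to 17 counts per library, a log2 fold change of 1.29 (SE 0.441, edgeR adjusted p = 0.0296). That call did not hold with DESeq2 (adjusted p = 0.102), and was also lost in 5 of the 6 fits that left out a library. Rhox13 passed the filter through the HP1βKO libraries, which fixed its direction. Of 4 members tested 3 were called, where 9.1% of all genes were called. Trophoblast markers moved in these cells too, with 5 of 8 tested called higher and a summed level of 111 to 124 CPM against 55.2 to 57.9 CPM in set A. Tpbpa was at 0 in HP1βKO and wild-type libraries, and the part of such cells in the result was not tested.

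Set directly against each other, HP1βKO cells had 10.2-fold less Rhox5 than HP1αKO cells, a log2 difference of -3.35 (SE 0.108, edgeR adjusted p = 1.37e-09). Rhox6 differed by -1.89 and Rhox9 by -2.03 on the log2 scale. Rhox1 had 4, 3 and 0 counts in HP1βKO and 11, 20 and 17 in HP1αKO libraries, a log2 difference of -2.64 (edgeR adjusted p = 0.00738). Of 5 members tested 4 were called, where 6.08% of all genes were called, and Rhox1 entered this test only through the HP1αKO libraries.

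HP1γKO cells had less Rhox5 and wild-type levels of the placental genes. Rhox5 had 8.31, 7.26 and 8.52 CPM, a log2 fold change of -1.01 (SE 0.111, edgeR adjusted p = 5.5e-07). All of its libraries lay below set A, but the value sits on the fold threshold: it was -0.999 with DESeq2 and with RLE size factors, -0.90 against set B, and from -0.98 to -0.93 without wild-type replicate 1, wild-type replicate 2 or HP1γKO replicate 2, in none of which it was called. Rhox6 had 6.26, 4.21 and 4.03 CPM (log2 fold change -0.05, 95% interval -0.44 to 0.34), and Rhox9 had 3.28, 3.01 and 3.15 CPM (0.07, interval -0.38 to 0.52). For both the libraries overlapped those of set A. Of 3 members tested 1 was called, where 5.59% of all genes were called. Against HP1αKO cells, HP1γKO cells had less Rhox5 (-2.74) and Rhox9 (-1.01), 2 of 4 members tested with 1.65% of all genes called. The call of Rhox9 was lost without HP1αKO replicate 1 or without HP1γKO replicate 2. Against HP1βKO cells they had more Rhox6 (1.01) and Rhox9 (1.03) and less Rhox13 (-1.93), 3 of 4 members tested with 3.85% of all genes called. Only 1 of these was called when HP1βKO replicate 2, HP1βKO replicate 3 or HP1γKO replicate 1 was left out. Rhox13 passed this filter through the HP1βKO libraries.

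**Figure D3:**
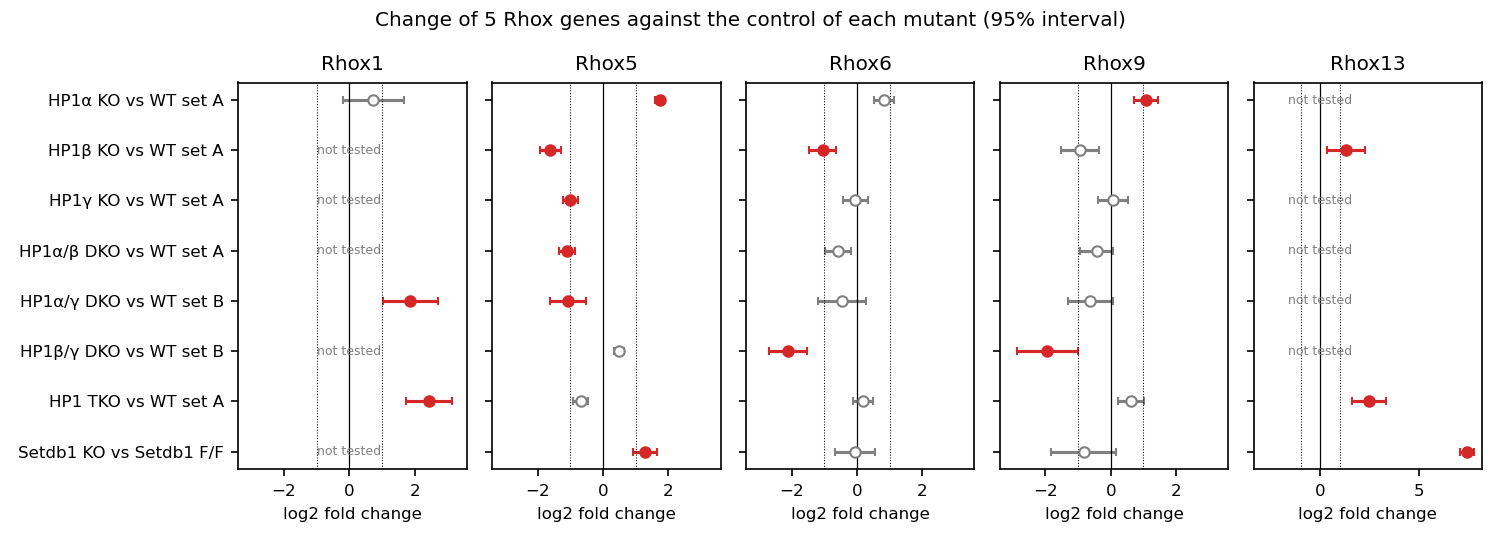
Log2 fold change (x axis) of Rhox1, Rhox5, Rhox6, Rhox9 and Rhox13 in the 8 mutants against their own control (rows), with the 95% interval; filled red points are called (adjusted p under 0.05 and a change over 1, dotted lines) and open points are not. Rhox5 is at 1.73 in HP1α KO and at -1.61 in HP1β KO cells, and Rhox13 is at 7.45 in Setdb1 KO cells.

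Among the double mutants, HP1β/αDKO cells had less Rhox5 than set A, as HP1βKO and HP1γKO cells did. Rhox5 had 6.6, 7.84 and 7.95 CPM, a log2 fold change of -1.10 against set A (SE 0.116, edgeR adjusted p = 5.39e-07). Rhox6 had 3.92, 3.36 and 2.63 CPM (-0.59, edgeR adjusted p = 0.0187) and Rhox9 2.32, 2.41 and 1.93 CPM (-0.42, edgeR adjusted p = 0.166), and neither was called. Against set B these 2 genes had changes of 0.13 and 0.20, of the opposite sign. Of 3 members tested 1 was called, where 8.16% of all genes were called. Compared with HP1αKO cells, HP1β/αDKO cells had less Rhox5 (-2.82), Rhox6 (-1.41) and Rhox9 (-1.50), 3 of 4 members tested with 4.2% of all genes called. Compared with HP1βKO cells they had more Rhox5, by 0.53 (edgeR adjusted p = 0.0245, under the fold threshold), and less Rhox13, with 0, 5 and 1 counts against 13, 11 and 17 (-2.76, edgeR adjusted p = 0.0081). The latter was 1 of 4 members tested, with 6.74% of all genes called, and Rhox13 passed the filter through the HP1βKO libraries.

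A test of the difference asked whether the change after loss of both genes equals the sum of the single changes. For Rhox5 the double mutant was 1.21 below that sum on the log2 scale (interaction -1.21, SE 0.167, edgeR adjusted p = 1.13e-05), and for Rhox13 the interaction was -3.53 (SE 0.97, edgeR adjusted p = 0.00619). Rhox13 passed the filter through the HP1βKO libraries, which favours a negative interaction, so that its sign is no result. Rhox6 (-0.36, interval -0.90 to 0.17), Rhox9 (-0.55, interval -1.19 to 0.09) and Rhox1 (0.70, interval -1.24 to 2.63) were not called. The 2 calls are among 5 members tested, with 9.53% of all genes called.

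In HP1γ/αDKO cells Rhox5 had 5.48, 10.8 and 5.92 CPM, a log2 fold change of -1.08 against set B (SE 0.237, edgeR adjusted p = 0.00876). The middle value is that of the library that stands apart; without it the change was -1.40 (edgeR adjusted p = 1.86e-07). When replicate 1 or replicate 3 was left out instead, the change was -0.91 and -0.95 and was not called. Rhox1 rose to 1.615, 1.98 and 1.03 CPM, which are 33, 36 and 22 counts against 6 to 11 in set B, a log2 fold change of 1.87 (SE 0.361, edgeR adjusted p = 0.00507) and 1.69 without replicate 2. Rhox6 had 1.615, 3.52 and 1.68 CPM (-0.46, or -0.87 without replicate 2) and Rhox9 1.125, 1.87 and 0.886 CPM (-0.63, or -0.94 without replicate 2), and neither was called in either fit. Rhox10 and Rhox13 were not tested here. Rhox10 had 0, 0.77 and 0.56 CPM and Rhox13 0.196, 1.1 and 0.373 CPM, with the highest value of each in replicate 2. Of 4 members tested 2 were called, where 23.1% of all genes were called. Without replicate 2 the same 2 genes were called, with 23.4% of all genes. Rhox1 passed the filter through the HP1γ/αDKO libraries, which fixed its direction. Against set A, Rhox1, Rhox5, Rhox6 and Rhox9 were called, with and without replicate 2.

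HP1β/γDKO cells separated Rhox5 from Rhox6 and Rhox9. Rhox5 had 20.4, 20.1 and 22.6 CPM, all above set B, with a log2 fold change of 0.49 (SE 0.0779, edgeR adjusted p = 9.68e-05) that stayed under the fold threshold. Rhox6 fell to 0.925, 0.742 and 0.425 CPM, by 2.11 on the log2 scale (SE 0.272, edgeR adjusted p = 1.12e-05). Rhox9 fell to 0.132, 0.305 and 1 CPM, by 1.94 (SE 0.434, edgeR adjusted p = 0.00163). The last library holds 26 of its 36 counts, and without it the log2 fold change was -3.10 (SE 0.409, edgeR adjusted p = 3.76e-05). Both had every library below set B. Rhox1 was at 0, 0 and 1 counts against 6, 9 and 11, a ratio of 0.0347 (95% counting interval 0.000845 to 0.211), and was not tested. Copies of Rhox4, too low to test singly, went the other way. They summed to 16, 19 and 26 counts against 4, 6 and 7 in set B and 4, 15 and 9 in set A. Rhox13, also not tested, had 6, 8 and 8 counts against 3, 5 and 1 in set B. Of 3 members tested 2 were called, where 11.9% of all genes were called. Compared with HP1γ/αDKO cells, HP1β/γDKO cells had more Rhox5 (1.56), less Rhox6 (-1.64) and less Rhox1 (-6.25, at 1 count in 3 libraries), 3 of 4 members tested with 23.9% of all genes called. Without HP1γ/αDKO replicate 2 these differences were 1.89, -1.24 and -6.08, and the same 3 genes were called. Rhox1 entered this test only through the HP1γ/αDKO libraries.

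Ratios of counts inside a library do not depend on depth or scaling, and they show the same separation. Rhox6 and Rhox9 kept close to one ratio: 1.66 counts of Rhox6 to 1 of Rhox9 in set A (95% counting interval 1.38 to 2), 1.56 in set B, 1.41 in HP1αKO, 1.54 in HP1βKO, 1.52 in HP1γKO, 1.48 in HP1β/αDKO, 1.75 in HP1γ/αDKO (1.43 to 1.89 in its libraries) and 1.36 in HP1β/γDKO cells. It was 1.23 in HP1β/γ/αTKO (interval 1.06 to 1.43), 1.79 in SETDB1FF and 3.04 in SETDB1KO cells (interval 1.9 to 5.05, on 73 and 24 counts). In HP1β/γDKO libraries it ran from 0.423 to 7, on 3 to 26 counts of Rhox9. The ratio of Rhox5 to Rhox6 had a wider range. It was 3.24 in set A, 5.03 in set B and 6.03 in HP1αKO, but 2.2 in HP1βKO, 1.68 in HP1γKO, 2.28 in HP1β/αDKO and 3.28 in HP1γ/αDKO cells (3.08 to 3.53 in its libraries). In HP1β/γDKO cells it was 30.8 (interval 23.2 to 41.8), with 22, 27.1 and 53.2 in the libraries, and no other library exceeded 6.88. These intervals cover counting error only.

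In the triple mutant Rhox1 and Rhox13, toward the ends of the cluster, rose, while Rhox5, Rhox6 and Rhox9 between them stayed under the fold threshold. Rhox1 had 2.145, 2.38 and 2.55 CPM, or 50, 50 and 66 counts against 10, 10 and 8 in set A, a log2 fold change of 2.45 (SE 0.333, edgeR adjusted p = 1.68e-06). Rhox13 had 1.8, 1.24 and 1.35 CPM, or 42, 26 and 35 counts against 6, 5 and 6, a log2 fold change of 2.47 (SE 0.42, edgeR adjusted p = 2.55e-05). For both genes every library of the mutant lay above every library of set A. Rhox5 had 8.79, 9.27 and 10.95 CPM, all below set A (-0.69, SE 0.112, edgeR adjusted p = 1.49e-05), and Rhox9 had 4.33, 4.94 and 4.18 CPM, all above it (0.62, SE 0.196, edgeR adjusted p = 0.00696). Both stayed under the fold threshold, though Rhox9 was called at 1.26 against set B. Rhox6 had 5.49, 5.8 and 5.22 CPM (0.19, interval -0.13 to 0.51). Among members too low to test, Rhox2a had 14, 1 and 8 counts with 0 in set A, at least 6.97-fold higher against a floor of 3 counts over the group, and Rhox2-ps had 8, 16 and 14 counts against 2, 3 and 1. Rhox2a may share reads with the other copies of Rhox2, and Rhox2-ps was counted in tables with set A only. Of 5 members tested 2 were called, where 42.3% of all genes were called, so that the share of members was close to that of genes at large. Rhox1 and Rhox13 passed the filter through the triple mutant only. They could be called in that direction only, so that this count supports no direction.

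The triple mutant was also set against HP1β/αDKO cells, a constitutive line that lacks Hp1α and Hp1β. By the study's account the triple mutant came from floxed cells given Cre. Loss of Hp1γ, cell line and Cre transfection thus cannot be told apart in this comparison. In the triple mutant Rhox13 was higher by 3.94 (SE 0.594, edgeR adjusted p = 1.53e-05), Rhox1 by 2.93 (SE 0.404, edgeR adjusted p = 5.83e-06) and Rhox9 by 1.03 (SE 0.199, edgeR adjusted p = 0.000182). The call of Rhox9 was lost without HP1β/αDKO replicate 3 (0.92) or HP1β/γ/αTKO replicate 2 (0.96). Rhox6 (0.76) and Rhox5 (0.40) were higher at an adjusted p under 0.05 but under the fold threshold. Of 5 members tested 3 were called, where 41.4% of all genes were called. Rhox13 and Rhox1 passed the filter through the triple mutant, so that their direction was fixed by it.

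Loss of SETDB1 raised Rhox13 from near 0 to the most abundant transcript of the cluster in those cells. Rhox13 had 30.7, 28.9 and 29.1 CPM in SETDB1KO libraries and 0.25, 0.05645 and 0.177 CPM in SETDB1FF libraries. These are 612, 609 and 616 counts against 5, 1 and 3, a log2 fold change of 7.45 (SE 0.17, edgeR adjusted p = 6.24e-17), and a ratio of counts of 179 (95% counting interval 94.2 to 393). Per length, Rhox13 stood at 88.2 ± 3.06 TPM (SD, n = 3), beside 21 ± 2.03 TPM for Rhox5 in the same cells. Rhox10, a gene of spermatogonia, had 27, 27 and 27 counts against 2, 2 and 3, a log2 fold change of 3.30 (SE 0.416, edgeR adjusted p = 1.27e-06). The pseudogene Rhox7-ps2 had 30, 35 and 47 counts against 1, 0 and 1, a ratio of 49.2 (interval 13.3 to 411; edgeR adjusted p = 6.21e-08). In TPM it had 0.69, 0.76 and 2.06 against at most 0.02. Rhox5 had 4.92, 5.78 and 5.61 CPM against 2.45, 2.48 and 1.77 CPM, a log2 fold change of 1.29 (SE 0.171, edgeR adjusted p = 2.42e-06). All 4 of these genes had every SETDB1KO library above every SETDB1FF library.

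The placental pair did not follow. Rhox6 had 1.56, 0.947 and 1.04 CPM in SETDB1KO and 1.05, 1.355 and 1.36 CPM in SETDB1FF libraries (log2 fold change -0.07, interval -0.68 to 0.54), and Rhox9 had 0.1, 0.663 and 0.377 CPM against 0.75, 0.677 and 0.649 CPM (-0.83, interval -1.82 to 0.16, and called lower at -1.48 without SETDB1KO replicate 2). For both genes the interval excludes a rise of the size seen for Rhox5. Of 6 members tested 4 were called, where 29.9% of all genes were called. Rhox13, Rhox10 and Rhox7-ps2 passed the filter only through the SETDB1KO libraries and could be called in that direction only, so that this count supports no direction; of the 3 others Rhox5 was called. Below the filter, Rhox11 had 10, 6 and 3 counts with 0 in SETDB1FF cells, at least 5.56-fold higher against the floor, and Rhox1 had 11, 9 and 13 counts against 0, 4 and 0, a ratio of 7.25 (interval 2.58 to 28.2). The copies of Rhox2, Rhox3 and Rhox4 stayed at a total of at most 3 counts each in SETDB1KO cells.

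**Figure D4:**
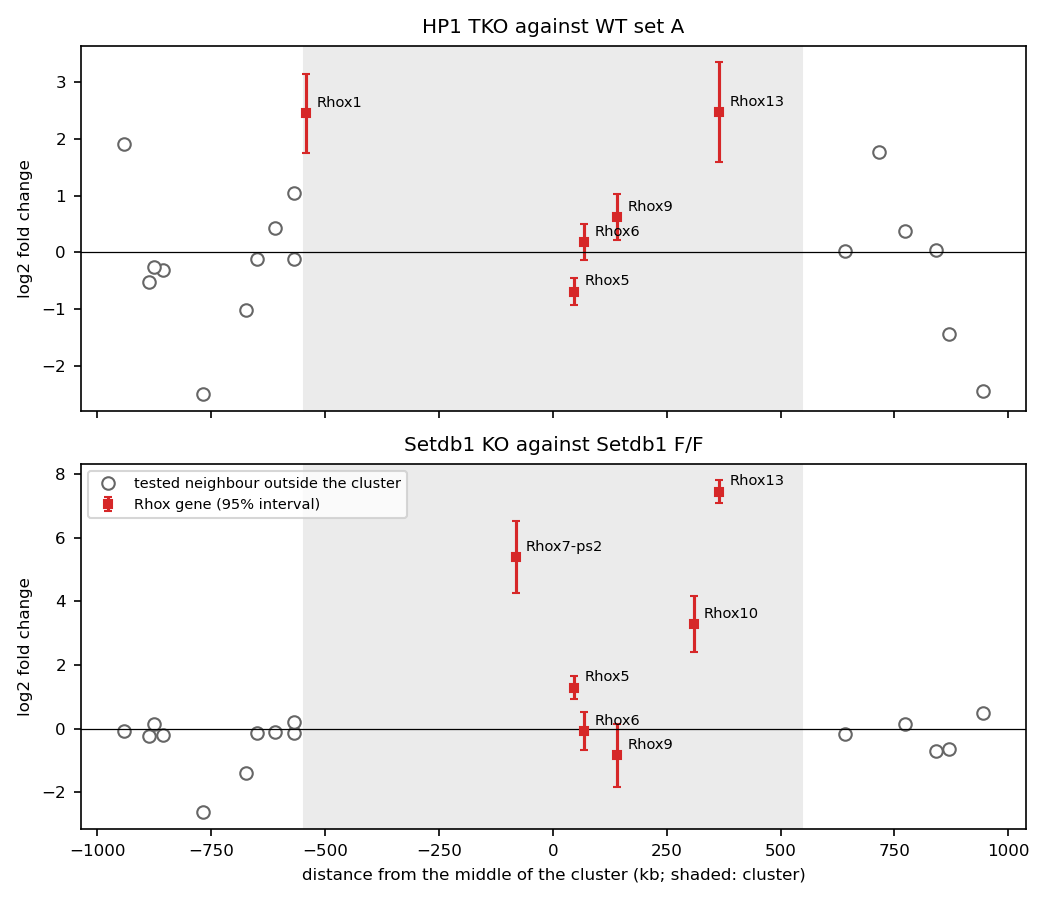
Log2 fold change (y axis) of Rhox genes (red squares with 95% interval) and of tested genes within 500 kb outside the cluster (open circles) against distance from the middle of the cluster in kb, for the triple mutant (top) and Setdb1 KO cells (bottom); the cluster is shaded. In Setdb1 KO cells Rhox7-ps2, Rhox10 and Rhox13 lie between 3.30 and 7.45, and no neighbour shown is called higher.

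The SETDB1 and the triple HP1 effects were set against each other as a difference of log2 fold changes over 12 libraries. Rhox13 rose more without SETDB1, by 5.01 (SE 0.58, edgeR adjusted p = 7.73e-08). For Rhox5 the difference was 2.01 (SE 0.204, edgeR adjusted p = 9.62e-09), since it was lower in the triple mutant and higher in SETDB1KO cells. Rhox9 differed by -1.42 (SE 0.491, edgeR adjusted p = 0.0144). Rhox6 (-0.23, interval -0.86 to 0.40), Rhox1 (0.35, interval -1.22 to 1.91) and Rhox10 (1.61, interval -1.41 to 4.64) were not called. Of 7 members tested 3 were called, where 31.9% of all genes were called. Parental line, Y-linked expression and the target of the knockout cannot be told apart in this difference.

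Summed over all 42 members the cluster had 26.5, 25.6 and 23.6 CPM in set A and 21.7, 20.9 and 20.4 CPM in set B. The sum was 71.6, 73 and 69.3 CPM in HP1αKO libraries, 2.82 times the mean of set A. It was 12.4, 10.35 and 9.61 CPM in HP1βKO, 18.4, 16.3 and 16.8 CPM in HP1γKO and 13.4, 14.3 and 13.4 CPM in HP1β/αDKO libraries, or 0.428, 0.68 and 0.543 times set A, and every library lay below those of set A. HP1γ/αDKO had 10.4, 20.4 and 10.8 CPM, with the highest value again in replicate 2. HP1β/γDKO had 22.9, 22.7 and 25.8 CPM, 1.13 times set B, and HP1β/γ/αTKO had 24, 25.4 and 25.8 CPM, 0.992 times set A. SETDB1KO libraries had 41.5, 40.1 and 40.5 CPM against 4.7, 4.91 and 4.25 CPM in SETDB1FF, 8.81 times as much. As Rhox5 weighs most in this sum, it hides what the others did. Without Rhox5 the sum was 1.67 times set A in the triple mutant and 0.466 times set B in HP1β/γDKO cells. The makeup changed as well: Rhox5 took 87.71% to 89.02% of the counts in HP1β/γDKO libraries, 36.52% to 42.43% in the triple mutant and 11.85% to 14.4% in SETDB1KO libraries, where Rhox13 took 71.79% to 74%.

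**Figure D5:**
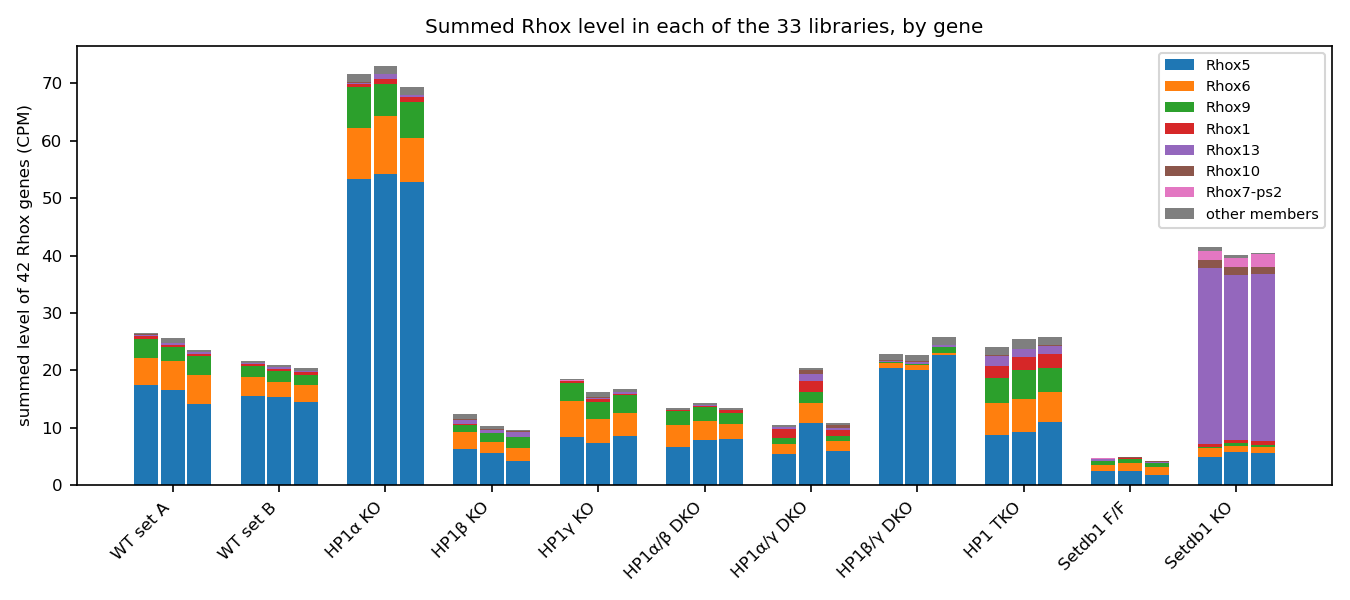
Summed level of the 42 Rhox genes in CPM (y axis) in each of the 33 libraries (bars, grouped by condition), divided by gene in proportion to counts. HP1α KO libraries reach 69.3 to 73 CPM, mostly Rhox5, and Setdb1 KO libraries 40.1 to 41.5 CPM, mostly Rhox13.

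Genes around the cluster gave a local background. Of the 20 nearest tested genes outside it, 10 on each side, 0 were called in HP1αKO and in HP1βKO cells (edgeR), with log2 fold changes between -0.80 and 0.72, with 10 and 12 at an unadjusted p under 0.05. Gm14565, a predicted gene 399.5 kb from the cluster, was called lower in HP1γKO (-3.78), HP1β/αDKO (-2.21), HP1γ/αDKO (-4.15) and HP1β/γDKO cells (-1.44). Tenm1 was also lower in HP1β/αDKO cells (-1.77), but it was called lower in set B than in set A too (-2.59). In HP1γ/αDKO cells Gria3 was lower (-1.08) and Ndufa1 higher (1.06), the last not called without replicate 2, when Nkrf was. In the triple mutant 4 were called higher and 4 lower, where 42.3% of all genes were called, and in SETDB1KO cells 2 and 2, where 29.9% were. The 2 rises in SETDB1KO cells were Gria3 (2.59), a glutamate receptor subunit gene, and Tenm1 (1.46), and they lie 3094.8 kb and 4221.8 kb from the cluster. Zbtb33, the tested gene inside the cluster that encodes the methyl-CpG binding protein Kaiso, had a log2 fold change of 0.20 in both mutants and was not called. The pseudogene Zfp36l1-ps, also inside the cluster, was tested in the triple mutant only and rose by 3.81. Over X-linked genes outside the cluster the median log2 fold change was -0.10 in the triple mutant and 0.09 in SETDB1KO cells, against 0.04 and 0.01 on the autosomes. Xist had 6.65 to 8.01 CPM in the triple mutant, 3.1 to 3.35 CPM in set A, 10.6 to 13.5 CPM in SETDB1KO and 7.95 to 8.03 CPM in SETDB1FF libraries.

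Other germ cell genes give the setting of these changes. Of the X-linked genes of germ cells or placenta outside the cluster, 11 of 11 tested were called higher in SETDB1KO cells, where 29.9% of all genes were called (median log2 fold change 4.78, against 0.01 over all genes), among them Taf7l (6.81), a TATA-binding protein associated factor of spermatocytes, and Esx1 (2.69), a placental homeobox gene. In the triple mutant 8 of 12 were called higher and 1 lower, where 42.3% of all genes were called (median 2.69, against 0.03), and Taf7l had 2.79. The counts higher and lower were 1 and 2 of 10 in HP1αKO, 4 and 1 of 10 in HP1βKO, 0 and 3 of 9 in HP1γKO, 2 and 4 of 9 in HP1β/αDKO, 1 and 1 of 7 in HP1γ/αDKO (2 and 2 of 8 without replicate 2) and 5 and 2 of 9 in HP1β/γDKO cells. In the order of these mutants 4.87%, 9.1%, 5.59%, 8.16%, 23.1% and 11.9% of all genes were called. The summed level of this X-linked list was below both wild-type sets in every HP1 mutant. It was 183 to 189 CPM in set A, 24 to 26.6 CPM in HP1βKO and 56.6 to 60.3 CPM in the triple mutant. In SETDB1KO libraries it was 548 to 580 CPM against 13.6 to 16.5 CPM in SETDB1FF. Genes near 0 in the control pass the filter only through the mutant, which holds for these lists too. Among autosomal germ cell genes that DNA methylation silences, 13 of 13 were called higher in SETDB1KO cells (median 5.88) and 11 of 12 in the triple mutant (median 1.99), Dazl with 6.56 and 1.85. In the other mutants 0 to 6 were called higher and 0 to 3 lower, where 4.87% to 23.1% of all genes were called. In HP1γ/αDKO cells 5 of 10 tested were higher and 3 lower, with 23.1% of all genes called. Without replicate 2 it was 4 and 2 of 10, with 23.4% of all genes. These lists share Dazl and Ddx4 with the germ cell markers, whose summed level was 1690 to 1740 CPM in SETDB1KO and 223 to 234 CPM in SETDB1FF libraries, with 2 of 8 tested called higher (Dazl and Ddx4) and 1 lower.

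Regulators of silencing were measured as well. Of 14 genes of DNA methylation and H3K9 methylation, 0 were called in the single mutants and in HP1β/αDKO cells (edgeR), where 9 to 12 had an unadjusted p under 0.05 with a change under the fold threshold. In the triple mutant Dnmt1 (-1.17), the maintenance DNA methyltransferase, Dnmt3b (-1.69), Tet1 (-2.05) and Ehmt1 (-1.62) were down-regulated. SETDB1KO cells had more Dnmt3l (2.13), a cofactor of de novo methylation, and less Ehmt2 (-1.54), which encodes G9a, and Suv39h2 (-1.68). HP1γ/αDKO cells had 2 higher (Dnmt3l, Tet2) and 3 lower (Dnmt3a, Dnmt3b, Suv39h1), with and without replicate 2, and HP1β/γDKO cells had 1 lower (Tet1). These counts stand beside 42.3% of all genes called in the triple mutant, 29.9% in SETDB1KO, 23.1% in HP1γ/αDKO and 11.9% in HP1β/γDKO cells. Of 9 subunits of PRC1.6, a Polycomb complex that represses germ cell genes, 2 were called in the triple mutant (Mga 1.27, Ring1 -1.03), 2 in SETDB1KO cells (E2f6 1.07, Tfdp1 -1.03) and 0 in the other mutants (edgeR), where 5 to 7 had an unadjusted p under 0.05. The share of 2 in 9 was below that of all genes in both comparisons.

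Markers of other cell types were read in the same libraries. ESC markers summed to 3500 to 4000 CPM in the wild-type sets and most HP1 mutants. In the triple mutant they summed to 1380 to 1430 CPM, and 6 of 9 were down-regulated, where 42.3% of all genes were called. In HP1γ/αDKO cells they summed to 5850 to 8270 CPM, and 4 of 9 were higher, where 23.1% of all genes were called. In SETDB1KO cells they summed to 4430 to 4490 CPM against 6480 to 6510 CPM in SETDB1FF. Feeder fibroblast markers were between 4.91 and 51.4 CPM in all groups, and in HP1αKO cells (26.6 to 30.5 CPM) close to set A (24.8 to 26.5 CPM). Trophoblast markers, a source of Rhox6 and Rhox9 in the placenta, were at 122 to 131 CPM in HP1αKO and 77.8 to 84.3 CPM in the triple mutant. Set A had 55.2 to 57.9 CPM and set B 76.7 to 84.8 CPM, the latter as high as the triple mutant. SETDB1KO libraries had 58.6 to 63 CPM against 74.9 to 76.5 CPM in SETDB1FF. Trophoblast markers were also above both wild-type sets in HP1γKO (129 to 134 CPM) and HP1β/αDKO (181 to 195 CPM), in which Rhox6 and Rhox9 were not called. They were above both sets in HP1βKO cells as well (111 to 124 CPM), in which Rhox6 was called lower. The same held in HP1β/γDKO cells (96 to 99.4 CPM), in which Rhox6 and Rhox9 were called lower. Primitive endoderm markers were 5 higher and 2 lower of 9 in the triple mutant, where 42.3% of all genes were called. Their sum was lower there, at 282 to 286 CPM against 528 to 544 CPM in set A. In SETDB1KO cells 1 was higher and 5 were lower of 10, where 29.9% of all genes were called. The sum was 234 to 237 CPM against 451 to 459 CPM in SETDB1FF. Sertoli cell markers, a list that holds Rhox5 itself, were at 63.4 to 65.3 CPM in HP1αKO libraries, of which Rhox5 made up 52.9 to 54.3 CPM, and Fshr and Rhox8 were at 0. In bulk RNA, fewer cells of a type and less RNA per cell cannot be told apart, and the part of other cell types in these changes was not tested.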

How the data were processed

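RNA-seq tables of 33 libraries of mouse ESCs, 1 for each of 8 mutants with its control, were read. The authors deposited, for each gene and library, an estimated count (not normalized) and a TPM value, which is scaled for gene length and library. Per the submitters' processing notes, TopHat2 2.1.1, RSEM and edgeR were used with GRCm38.p5; their settings are not given in the sources used here. The sources differ on the kit (stranded total RNA in the methods, TruSeq RNA in the labels), so the strand setting is not known. Columns with the authors' fold changes, p values and group means were not used.

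Library totals were 17330992 to 25743193 counts. Estimated counts were rounded to whole numbers. The quasi-likelihood test of edgeR 4.0.16 (R 4.3.3, limma 3.58.1) was fitted to the 6 libraries of each comparison after TMM scaling and filterByExpr, whose minimum count was 10. A call needed an absolute log2 fold change over 1 and an adjusted p (Benjamini-Hochberg, all genes tested) under 0.05. Standard errors were derived from the fold change and the F statistic, and 95% intervals from these. The 2 tests of a difference used 12 libraries. CPM were scaled by TMM over all 33 libraries. Ratios of low counts have exact intervals, which cover counting error only, and a group at 0 was set to a floor of 3 counts.

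Every member that passed the filter in at least 1 of the 8 control comparisons is given by library, and the others by counts and ranges. The lists are silencing regulators, PRC1.6 subunits, X-linked genes of germ cells or placenta, autosomal germ cell genes silenced by DNA methylation, and markers of ESCs, feeder fibroblasts, trophoblast, primitive endoderm, germ cells and Sertoli cells. Members and lists were chosen with earlier results of these data known. The tests were checked on simulated counts. DESeq2 1.42.0, RLE size factors, other filters, copies summed by Rhox number, a joint fit, the other wild-type set, a block on replicate number, and fits without each library were alternatives. Fits of the lists and of HP1γ/αDKO cells against set A without replicate 2 were added after seeing the data.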

Additional observations from a re-analysis of the deposited data

Results flagged for a closer look

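The interaction of HP1α and HP1β loss was called for 2 Rhox genes, over 12 libraries of set A, both single mutants and HP1β/αDKO cells. The interaction was -1.21 on the log2 scale for Rhox5, for which the wild-type mean was 16.03 CPM, HP1αKO cells had 53.5 CPM, HP1βKO cells 5.31 CPM and HP1β/αDKO cells 7.46 CPM. For Rhox13 it was -3.53, on at most 18 counts in any of these libraries. Rhox13 passed the filter through the HP1βKO libraries, which favours a negative interaction, so that its sign is no result. Only the value of Rhox5 bears on whether the single changes add up.

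The effects of SETDB1 loss and of triple HP1 loss differed for 3 Rhox genes by a test of the difference. It was 5.01 on the log2 scale for Rhox13, 2.01 for Rhox5 and -1.42 for Rhox9. The difference for Rhox9 rests on 2, 14 and 8 counts in the SETDB1KO libraries.

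Groups of 3 libraries were not searched for single distant values by a formal rule.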

How the results depend on the processing

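Counts of called members changed by over 1.5 times as follows. In HP1γKO cells 0 were called with DESeq2, with RLE size factors and against set B, where the 1 call was Rhox5 at a log2 fold change of -1.01. Without the fold threshold 2 were called in HP1β/αDKO, 4 in HP1β/γ/αTKO, 2 in set B against set A, 5 in HP1β/γ/αTKO against HP1β/αDKO and 2 in HP1β/αDKO against HP1βKO cells. Without a filter 5 were called in HP1β/γDKO, 4 in HP1β/γ/αTKO and 6 in HP1β/αDKO against HP1αKO cells, where the joint fit gave 5. With at least 10 counts in every library, which left at most Rhox5, Rhox6 and Rhox9 in the comparisons with a control, 1 was called in HP1γ/αDKO, HP1β/γDKO, SETDB1KO, HP1β/γ/αTKO against HP1β/αDKO and both tests of a difference, and 0 in HP1β/γ/αTKO against set A and in HP1β/αDKO against HP1βKO cells. Against set A, 4 were called in HP1γ/αDKO cells. With 1 library left out the count ran from 1 to 2 in HP1αKO (1 without set A replicate 2 or HP1αKO replicate 1), from 0 to 1 in HP1γKO (0 without set A replicate 1 or 2 or HP1γKO replicate 2), from 1 to 2 in HP1γ/αDKO (1 without its replicate 3), from 1 to 3 in HP1γKO against HP1αKO (1 without HP1αKO replicate 1 or HP1γKO replicate 2) and from 1 to 3 in HP1γKO against HP1βKO cells (1 without HP1βKO replicate 2 or 3 or HP1γKO replicate 1).

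The labels give the groups the same replicate numbers, but deviations of same-numbered libraries did not correlate over 0.1 in every pair of any comparison, so the numbers were not taken as pairs. The replicate block moved no count by over 1.5 times and ended 1 call against a control, that of Rhox13 in HP1βKO cells (log2 fold change 1.28, edgeR adjusted p = 0.0531). Signs reversed for uncalled genes only: Rhox6 in HP1γKO cells was 0.69 against set B and from -0.266 to 0.063 with 1 library left out (0.045 and 0.063 without HP1γKO replicate 2 and 3), Rhox9 there ran from -0.061 to 0.161, Rhox6 and Rhox9 in HP1β/αDKO cells 0.13 and 0.20 against set B, and Rhox6 in SETDB1KO cells ran from -0.313 to 0.067 (0.014 without replicate 3). Of the other values of single genes, 346 kept direction and side of the threshold, 9 lost the call and 5 gained one, and with 1 library left out 229 kept both, 15 lost the call and 3 gained one.

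The log2 ratio of the cluster sum without Rhox5 was 0.95 in HP1αKO, -0.75 in HP1βKO, -0.012 in HP1γKO, -0.56 in HP1β/αDKO, 0.13 in HP1γ/αDKO, -1.10 in HP1β/γDKO, 0.74 in HP1β/γ/αTKO and 3.89 in SETDB1KO cells. For the whole cluster, Rhox5 included, the log2 ratio with TPM was -0.75 in HP1γKO, -1.03 in HP1β/αDKO, -1.10 in HP1γ/αDKO, 0.24 in HP1β/γ/αTKO and 3.56 in SETDB1KO cells, against -0.56, -0.88, -0.60, -0.01 and 3.14 with CPM. The cause was not tested.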
